A study of Gallus gallus with 2 samples.

Results

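The Hoxd1 to Hoxd8 side of the chick HoxD cluster was followed through its chromatin contacts. This end of the cluster carries Hoxd1, which the study calls a pseudo-Hoxd1 gene in the chick, and Hoxd3, Hoxd4 and Hoxd8. It was taken as the 9 5-kb bins of chr7:16315001-16360000 (galGal5), out of 585 captured bins and 16 bins over the cluster. The other 7 cluster bins, chr7:16360001-16395000, hold Hoxd9 to Hoxd13. Capture Hi-C (CHi-C), in which DNA ends that lie close together in the nucleus are ligated and the products of one genomic interval are then enriched with probes, had been applied to wild type White Leghorn embryos of stage HH20, separately to their entire forelimb and hindlimb buds. There was 1 library per tissue, each made from pooled buds, and a whole bud mixes proximal and distal cells. Neither library had a replicate, so every interval and test in the text covers counting error only and compares these 2 libraries, not forelimb with hindlimb as conditions.

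Hox genes encode homeodomain transcription factors whose order along a cluster follows the order in which they are switched on in time and along the body axis. At HoxD the cluster lies between a pair of topologically associating domains, intervals in which DNA contacts itself more than its surroundings. T-DOM, on the Hoxd1 side, carries the enhancers of the early, proximal phase of limb development, and C-DOM, on the Hoxd13 side, carries those of the digit phase. In the mouse, Hoxd3 and Hoxd4 act in the patterning of the cervical vertebrae, Hoxd1 is known for a role in nociceptive sensory neurons, and Hoxd8 is expressed with its neighbours in the trunk and the early limb.

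The 4 genes could not be placed in single bins, because no gene positions on galGal5 were used here. Chicken RefSeq lists them in the order HOXD1, HOXD3, HOXD4 and HOXD8 on chromosome 7, so the bins are numbered from 1 at the Hoxd1 end to 9 at the Hoxd8 end, and on to 16 at the Hoxd13 end. All 9 bins had passed the masking of poorly covered bins in both libraries, while 555 of 585 captured bins were kept in the forelimb and 557 in the hindlimb. The 9 bins held between 6 and 14 DpnII fragments each. Their read pairs per bin ran from 9997 to 12572 in the forelimb and from 9959 to 13238 in the hindlimb, beside a median of 10984 and 11313 over all kept bins, so their depth was that of an ordinary captured bin. Of 3096681 captured read pairs in the forelimb library, 95510 (3.08%) had an end in the 9 bins, and of 3221107 in the hindlimb library, 99160 (3.08%) did.

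About every second contact of the Hoxd1 to Hoxd8 bins inside the captured interval was with T-DOM. Contacts with sequences outside that interval were not counted. In the forelimb, 46932 of the 95510 read pairs joined the Hoxd1 to Hoxd8 bins to T-DOM, a share of 49.1% (95% exact Clopper-Pearson interval 48.8 to 49.5). In the hindlimb the share was 50.4% (50.1 to 50.7), from 49996 of 99160. C-DOM received 6.76% (6.60 to 6.92) in the forelimb and 7.02% (6.87 to 7.18) in the hindlimb. Contacts of the 9 bins with each other at 10 kb or more took 4.33% and 4.14%, and contacts with the Hoxd9 to Hoxd13 bins 5.92% and 5.68%.

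Because near sequences touch more often than far ones, contact levels were expressed as observed over expected, the expected value being the mean balanced contact of all captured bin pairs at the same distance in the same library. A level of 1 is thus the average of the captured interval at that distance. Pairs of bins closer than 10 kb were left out. On this scale the Hoxd1 to Hoxd8 bins contacted T-DOM (chr7:15925001-16315000) at 1.39 in both libraries, with 95% exact Poisson intervals of 1.38 to 1.41 in the forelimb (46534 read pairs in kept bins) and 1.38 to 1.40 in the hindlimb (49621). C-DOM (chr7:16415001-16695000) was contacted at 0.341 (0.333 to 0.349) in the forelimb and at 0.357 (0.349 to 0.366) in the hindlimb. The T-DOM level was therefore 4.09 times the C-DOM level in the forelimb and 3.89 times in the hindlimb. The 20 kb between the cluster and C-DOM stood at 0.414 and 0.402. Beyond T-DOM the mean level was 1.01 in the forelimb and 1.04 in the hindlimb, but it joined a high near part to a low far part: it was 1.54 and 1.45 for bin pairs under 500 kb apart, and the median partner bin stood at 0.707 and 0.747. Beyond C-DOM the level was 0.634 and 0.656.

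**Figure D1:**
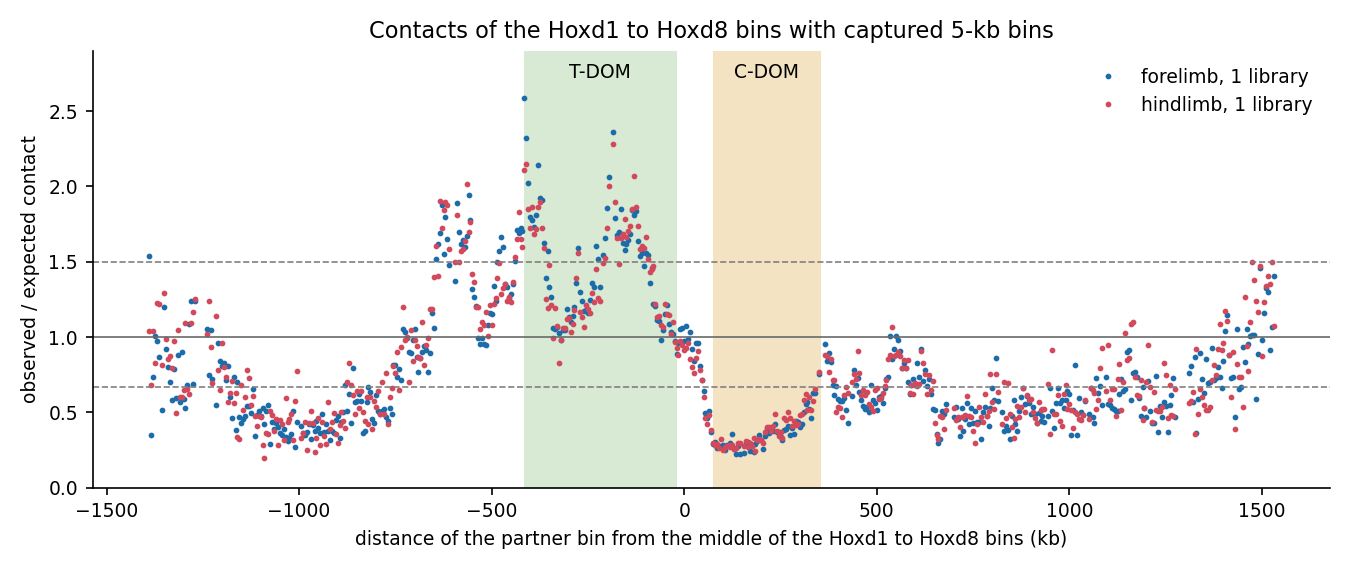
Observed over expected contact of the 9 Hoxd1 to Hoxd8 bins with each captured 5-kb bin, against the distance of that bin from the middle of the 9 bins in kb, T-DOM being at negative distances. Points are the forelimb and the hindlimb library, the dashed lines stand at 1.5 and 0.67; C-DOM lies between 0.222 and 0.769 while T-DOM rises to 2.36 in the forelimb and 2.28 in the hindlimb.

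The bins inside the Hoxd1 to Hoxd8 interval did not contact each other above the average for their distance. The level over their 28 bin pairs was 0.996 (0.965 to 1.03) in the forelimb and 0.911 (0.884 to 0.940) in the hindlimb. Single pairs ran from 0.742 to 1.24 in the forelimb and from 0.694 to 1.11 in the hindlimb. The highest pair of the forelimb joined bins 4 and 6, at 1.24 there (239 read pairs) and 1.09 in the hindlimb (235). The ends of the interval, bins 1 and 9, met at 0.771 and 0.753, from 74 read pairs in each library. With the Hoxd9 to Hoxd13 bins the level fell to 0.795 (0.775 to 0.816) in the forelimb and 0.746 (0.727 to 0.766) in the hindlimb.

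Within the 9 bins the level with T-DOM was uneven and followed position. Bin 1, at the Hoxd1 end and next to T-DOM, had the lowest level in both libraries, 1.30 (1.26 to 1.34) in the forelimb and 1.26 (1.22 to 1.30) in the hindlimb. The highest was bin 8 in the forelimb, at 1.49 (1.45 to 1.53), and bin 9 in the hindlimb, at 1.51 (1.47 to 1.55). The intervals of bins 7, 8 and 9 overlapped each other in each library and lay above that of bin 1. With C-DOM the 9 bins were nearly level, from 0.320 to 0.398 in the forelimb and from 0.337 to 0.383 in the hindlimb. The fall in T-DOM contact and the rise in C-DOM contact took place outside the 9 bins, as the plot of T-DOM and C-DOM levels by cluster bin shows: bin 13 contacted T-DOM at 1.14 and 1.16, and bin 16, at the Hoxd13 end, at 0.750 and 0.746, while its C-DOM level reached 0.959 and 0.976. The ratio of the T-DOM to the C-DOM level was between 3.27 and 4.47 over the 9 bins in the forelimb and between 3.29 and 4.37 in the hindlimb, and it was 0.78 and 0.76 at bin 16.

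**Figure D2:**
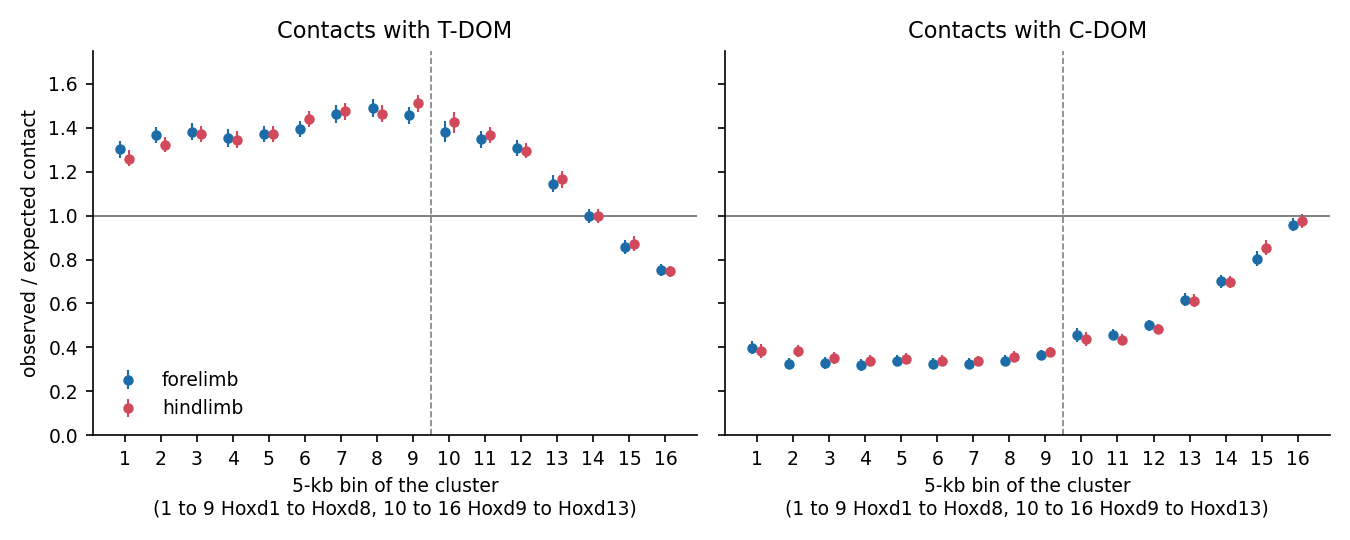
Observed over expected contact of each of the 16 cluster bins with T-DOM (left) and C-DOM (right), bins 1 to 9 being Hoxd1 to Hoxd8 and bins 10 to 16 Hoxd9 to Hoxd13. Points are the 2 libraries with 95% exact Poisson intervals; bins 1 to 9 stay between 1.26 and 1.51 with T-DOM and between 0.320 and 0.398 with C-DOM.

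Set against the Hoxd9 to Hoxd13 side, the Hoxd1 to Hoxd8 side contacted T-DOM as a whole more and C-DOM less in both libraries. High T-DOM contact was not particular to bins 1 to 9, however. Bins 10, 11 and 12 stood at 1.38, 1.35 and 1.31 in the forelimb and at 1.42, 1.37 and 1.30 in the hindlimb. These levels lie within the range of bins 1 to 9, and the lower T-DOM levels were those of bins 13 to 16. With C-DOM, bins 10 to 12 already stood above bins 1 to 9. From read pairs over their expected number, the Hoxd1 to Hoxd8 level with T-DOM was 1.13 times that of Hoxd9 to Hoxd13 in the forelimb (1.12 to 1.15, exact binomial test, Benjamini-Hochberg adjusted p = 5.47e-59) and 1.13 times in the hindlimb (1.11 to 1.14, adjusted p = 1.64e-58). With C-DOM it was 0.450 times (0.437 to 0.463) in the forelimb and 0.469 times (0.456 to 0.483) in the hindlimb, both past the same test, which was adjusted over 4 comparisons. The ratio between the sides thus lay farther from 1 for C-DOM than for T-DOM. Read pairs are not corrected for bin coverage, and balanced levels changed both ratios. With T-DOM the balanced levels of the 2 sides were 1.39 and 1.12 in the forelimb and 1.39 and 1.13 in the hindlimb, farther apart than by read pairs. With C-DOM they were 0.341 and 0.653 in the forelimb and 0.357 and 0.654 in the hindlimb, closer together than by read pairs. The higher T-DOM level was not seen farther out, around CS93 and across the far T-DOM border. Region b, which crosses that border and holds bins on either side of it, stood at 1.86 (1.82 to 1.91) for Hoxd1 to Hoxd8 and 1.92 (1.87 to 1.97) for Hoxd9 to Hoxd13 in the forelimb. In the hindlimb it stood at 1.72 (1.67 to 1.76) and 1.96 (1.91 to 2.01). The 30-kb window around CS93 stood at 1.40 (1.35 to 1.45) and 1.47 (1.41 to 1.53) in the forelimb and at 1.27 (1.23 to 1.32) and 1.35 (1.30 to 1.41) in the hindlimb. Of these, the intervals of the sides were apart only for region b in the hindlimb, and these level differences were not tested.

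The contact profile over single partner bins gave the same order. The profile of each cluster bin, in log2 levels, was correlated with the mean profile of the Hoxd1 to Hoxd8 bins, itself left out. The correlation used the 326 of 569 captured bins outside the cluster with contacts in every cluster bin of both libraries. Of these 326, 129 lay in T-DOM or C-DOM. Bin 7 was most like the mean in the forelimb, with Pearson's r of 0.89 and Spearman's rho of 0.90, and bin 8 in the hindlimb, with 0.87 and 0.89. Among the 9 bins, bin 1 was least like it, with r of 0.80 and 0.75. Bins 10 to 12, outside the interval, still reached r of 0.79 to 0.84. Likeness then dropped through bin 13 (0.66 and 0.68) to bin 16 (0.07 and 0.03), the lowest of the cluster. These are descriptions over partner bins that share libraries and neighbours, without a test.

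The partners of the Hoxd1 to Hoxd8 bins were next searched bin by bin. A partner bin was called preferred when its level was at least 1.5 in both libraries and depleted when it was at most 0.67 in both. Of 555 partner bins, 50 were preferred (9.01%) and 238 depleted (42.9%). All 50 preferred bins lay on the T-DOM side, 31 of them among the 76 kept T-DOM bins and 19 among the 186 beyond it. Only bins wholly inside the study's limits counted as T-DOM. The preferred bin chr7:15920001-15925000, which the far limit cuts, was therefore counted as beyond it. All but 1 of the 53 kept C-DOM bins were depleted, and no T-DOM bin was. The calls used the levels themselves, so the shares are descriptions. By single bin pairs 10 to under 500 kb apart, 246 of 1673 pairs with a Hoxd1 to Hoxd8 bin (14.7%) were at or above 1.5 in both libraries, beside 5.21% of all 47473 captured pairs. At or below 0.67 in both were 575 pairs (34.4%), beside 14% of all captured pairs.

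Of the 50 preferred bins, 47 stood in 6 runs of at least 2 bins. Nearest to the genes was a short run of 2 bins, chr7:16235001-16245000, 70 kb from the Hoxd1 end, at 1.55 and 1.59. Next came chr7:16170001-16230000, with a level of 1.68 (1.65 to 1.72) in the forelimb and 1.74 (1.71 to 1.78) in the hindlimb. It carries the lifted positions of CS32 to CS37, CS6 and CS8, conserved sequences named for their mouse counterparts. The following run, chr7:16130001-16165000, holds CS38 to CS41 and reached 1.90 (1.85 to 1.96) and 1.85 (1.80 to 1.90). The longest, chr7:15895001-15975000, spans 80 kb across the far border of T-DOM, 340 kb from the genes, with 1.88 (1.83 to 1.92) in the forelimb and 1.78 (1.74 to 1.82) in the hindlimb. A further pair of zones lay outside T-DOM altogether. These were chr7:15755001-15785000, at 1.71 in both libraries, and chr7:15700001-15725000, at 1.71 (1.61 to 1.82) and 1.85 (1.74 to 1.96), the latter 590 kb from the Hoxd1 end. Neither could hold a listed element, since on this side the list ends nearer to the genes, at CS19. The runs were chosen by Hoxd1 to Hoxd8 levels, but several were shared with Hoxd9 to Hoxd13, by the median over single cluster bins. At chr7:15895001-15975000 the Hoxd9 to Hoxd13 medians were 2.16 and 2.17, beside 1.85 and 1.69 for Hoxd1 to Hoxd8. In the 2 runs nearest to the genes they were 0.77 to 1.19, beside 1.52 to 1.81. In the remaining runs they were 1.62 to 1.97, beside 1.63 to 1.99.

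Ranked by the lower level of both libraries, the 5 highest partner bins outside the cluster all fell in the zones at CS38 to CS41 and at the far T-DOM border. The bin chr7:16150001-16155000, which holds part of CS38, stood at 2.36 (2.22 to 2.51) in the forelimb and 2.28 (2.15 to 2.42) in the hindlimb, from 1025 and 1114 read pairs. The other part of CS38 lies in the masked bin beside it. The bin of CS17, chr7:15925001-15930000, reached 2.32 and 2.15, and its neighbour with CS74, chr7:15920001-15925000, reached 2.59 and 2.11. The bin of CS39 and CS40, chr7:16140001-16145000, had 2.06 and 2.002, and that of CS70, chr7:15960001-15965000, had 1.92 and 1.90. The bins on either side of chr7:16145001-16150000, which was masked, therefore both ranked among the highest. Just inside the limit were chr7:15895001-15900000 at 1.503 and 1.53 and chr7:15690001-15695000 at 1.52 and 1.61, and just outside it chr7:15750001-15755000 at 1.70 and 1.499.

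Ranked by the higher level of both libraries, the 5 lowest bins were all in the cluster-side part of C-DOM. They were chr7:16465001-16470000 at 0.256 in the forelimb and 0.255 in the hindlimb, chr7:16470001-16475000 at 0.222 and 0.263, chr7:16440001-16445000 at 0.252 and 0.270, chr7:16510001-16515000 at 0.276 and 0.275, and chr7:16425001-16430000 at 0.277 and 0.266. The last of these holds part of Prox, a digit enhancer of the mouse. The longest run of depleted bins reached from chr7:16385001, inside the Hoxd9 to Hoxd13 side, to chr7:16680000 and covered 295 kb. Beyond C-DOM 107 of 220 bins were depleted, the longest run being chr7:16985001-17130000 at 0.453 and 0.457. Far on the T-DOM side 73 of 186 bins beyond the domain were depleted, the longest runs being chr7:15210001-15330000 at 0.420 and 0.432 and chr7:15340001-15455000 at 0.399 and 0.395.

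The lifted regulatory elements were then read in the bins they cover. Of 74 listed elements, 71 had a value. CS25 lies within bin 1 and was not measured as a partner, while island I and CS45 fell in masked bins. CS38 was read only in its kept bin, since part of it lies in a masked one. Several elements share a bin, and then share its value. In T-DOM 18 of 59 elements were preferred and none depleted, with a median level of 1.30 in the forelimb and 1.22 in the hindlimb. The 45 T-DOM bins with an element had medians of 1.36 and 1.26 and held 16 preferred bins. The 31 T-DOM bins without an element had 1.53 and 1.49 and held 15, so the medians were lower in the bins with a listed element.

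CS39, a limb enhancer region of T-DOM in the mouse, was contacted at 2.06 (1.92 to 2.21) and 2.002 (1.87 to 2.14). CS93, the sequence whose chick version the study assayed for enhancer activity, stood at 1.47 (1.38 to 1.56) in the forelimb and 1.34 (1.27 to 1.42) in the hindlimb over the 2 bins it touches. The bin that holds most of CS93, which is also that of CS9, stood at 1.60 (1.47 to 1.74) and 1.45 (1.33 to 1.58). CS65, another T-DOM element, stood lower, at 1.27 (1.12 to 1.42) and 1.21 (1.08 to 1.36). Among the others, CS38, CS17 and CS74 were highest, with the values of their bins above, and of the T-DOM elements only CS62 entered the 3 lowest, at 0.982 and 0.980.

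All 8 C-DOM elements with a value were depleted. Prox was contacted at 0.270 (0.243 to 0.298) in the forelimb and 0.279 (0.253 to 0.308) in the hindlimb, CsA at 0.223 and 0.300, and CsB at 0.301 and 0.293. These are the C-DOM elements nearest to the cluster. Farther out, island V stood at 0.369 and 0.387, the 2 parts of island IV, which share a bin, at 0.387 and 0.374, island III at 0.342 and 0.349, and island II, close to the far border, at 0.513 (0.471 to 0.557) and 0.551 (0.509 to 0.596). Island II was the highest of the 8 in both libraries, and its interval lay above those of Prox, CsA, CsB, island III and island V in each.

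Hindlimb and forelimb were compared next, as read pairs over their expected number in each library. On this scale the largest difference among the 6 partner blocks was within the interval itself. Contacts among the Hoxd1 to Hoxd8 bins were lower in the hindlimb library, with a log2 ratio of -0.15 (95% interval -0.21 to -0.09), from 4137 read pairs in the forelimb and 4107 in the hindlimb (exact binomial test, adjusted p = 1.66e-05 over 6 partner blocks). Of the 28 bin pairs, 23 were lower in the hindlimb (82.1%), beside 50.1% of the 3666 captured bin pairs at those distances. The largest fall was between bins 3 and 9, from 1.02 to 0.694 (121 and 87 read pairs), and the largest rise was between bins 1 and 5, from 0.742 to 1.01 (97 and 136). Contacts with the Hoxd9 to Hoxd13 bins were also lower, with a log2 ratio of -0.12 (-0.17 to -0.06, exact binomial test, adjusted p = 6.46e-05), and 40 of 62 bin pairs (64.5%) were lower. Both differences were seen in each group of sequencing lanes, at -0.15 and -0.15 inside Hoxd1 to Hoxd8 and at -0.13 and -0.10 with Hoxd9 to Hoxd13 in lanes 1 and 2 and lanes 3 and 4. Lane groups split the read pairs of the same library, so here and below they are not replicates. The size of both differences depends on the distance scale. Scaled only to the capture totals, they were -0.07 (-0.13 to -0.00) and -0.06 (-0.12 to -0.01), with adjusted p of 0.0413 and 0.0279 by the exact binomial test. The block beyond T-DOM then had the largest difference. In balanced values not divided by distance, they shrank to -0.03 inside Hoxd1 to Hoxd8 and -0.02 with Hoxd9 to Hoxd13, without a test. Inside Hoxd1 to Hoxd8 the expected read pairs were 4243 in the forelimb and 4671 in the hindlimb.

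**Figure D3:**
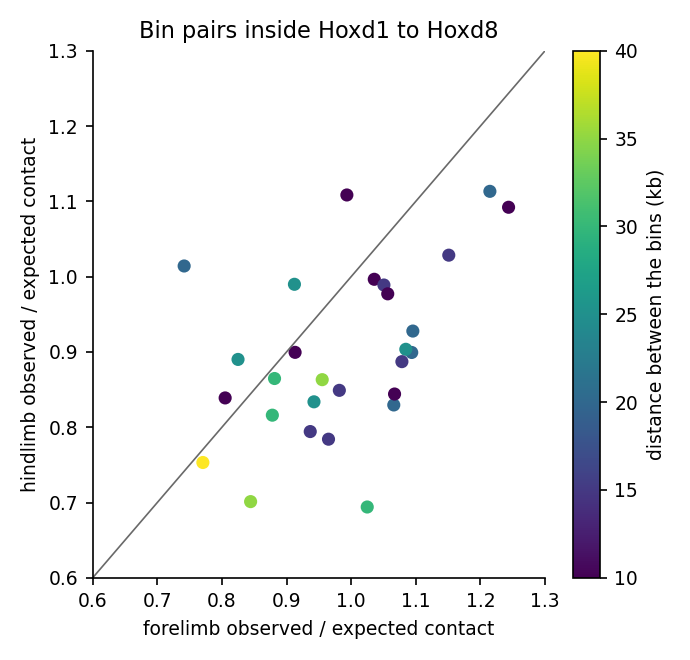
Observed over expected contact of the 28 pairs of Hoxd1 to Hoxd8 bins in the forelimb library (horizontal) and the hindlimb library (vertical), coloured by the distance between the bins in kb; the line marks equal levels. Of the 28 points, 23 lie below the line.

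Contacts with the flanking domains gave log2 ratios closer to 0 on the distance scale. With T-DOM the log2 ratio of hindlimb to forelimb was 0.03 (0.01 to 0.04, exact binomial test, adjusted p = 0.00982), but it was -0.00 from balanced values, and the call was lost in lanes 3 and 4 alone (0.02, adjusted p = 0.125). The block value joined bins that went opposite ways. Of the 9 bins, 4 passed the test adjusted over the bins, bin 1 at -0.08 and bins 6, 7 and 9 at 0.08, 0.07 and 0.10. These ratios use read pairs, which are not corrected for bin coverage. From balanced values, without a test, bin 1 stood at -0.05 and bins 6, 7 and 9 at 0.05, 0.01 and 0.05. Bin 2, at 0.01 by read pairs, then stood at -0.05. With C-DOM the block ratio was 0.05 (0.00 to 0.10, exact binomial test, adjusted p = 0.0529), at 0.11 in lanes 1 and 2 and -0.02 in lanes 3 and 4. Only bin 2 passed on its own, at 0.27 (0.12 to 0.42, exact binomial test, adjusted p = 0.00467), and the other bins ran from -0.11 to 0.08. Beyond T-DOM the block ratio was 0.02 (-0.01 to 0.05, exact binomial test, adjusted p = 0.257), but -0.09 for pairs under 500 kb (adjusted p = 0.00265) and -0.09 scaled only to the capture totals (adjusted p = 1.12e-06). Beyond C-DOM it was 0.04 (0.00 to 0.08, exact binomial test, adjusted p = 0.04), and it turned to -0.06 when read pairs were scaled only to the capture totals.

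**Figure D4:**
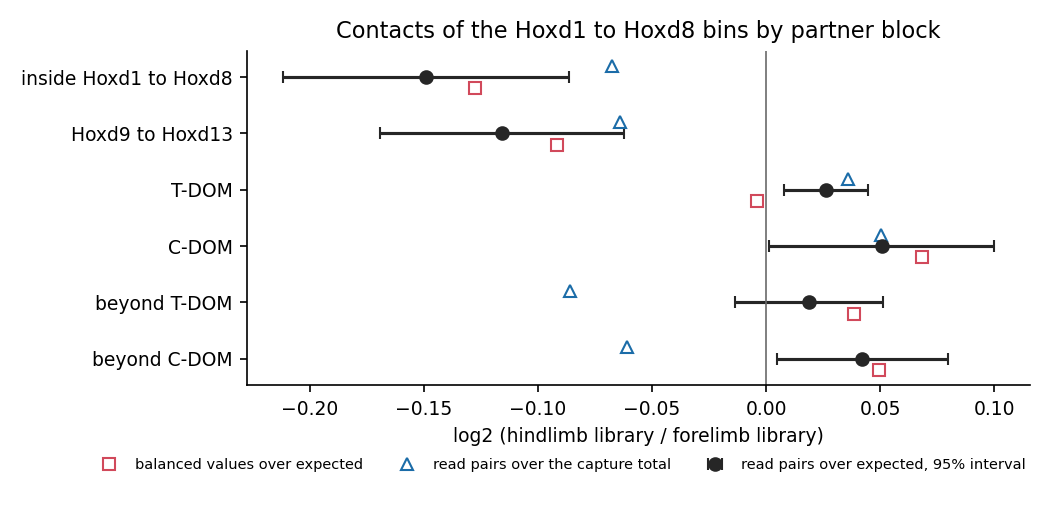
Log2 ratio of the hindlimb to the forelimb library for contacts of the 9 Hoxd1 to Hoxd8 bins with 6 partner blocks. Black points are read pairs over expected with 95% exact intervals, squares are balanced values over expected and triangles are read pairs over the capture total; the 2 upper blocks lie below 0 on all 3 scales.

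The small T-DOM value held opposite parts. From CS39 to the cluster the log2 ratio was 0.06 (0.04 to 0.09), with levels of 1.38 in the forelimb and 1.42 in the hindlimb. Beyond CS39, towards the far border, it was -0.04 (-0.07 to -0.01), with 1.42 and 1.34. The study compared 3 blocks in T-DOM or across its far border between the limbs, with a Wilcoxon signed-rank test over bin pairs of the balanced matrices. The same blocks were read here for the Hoxd1 to Hoxd8 bins alone. Bin pairs are not independent samples, so the test describes these matrices only.

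Region b, at the far T-DOM border (chr7:15910001-15985000), was contacted less in the hindlimb library. Its level was 1.86 (1.82 to 1.91) in the forelimb and 1.72 (1.67 to 1.76) in the hindlimb, and 90 of 135 bin pairs (66.7%) were lower in the hindlimb in the balanced matrices. The signed-rank test gave an adjusted p of 1.07e-06 over 3 blocks. By read pairs the log2 ratio was -0.07 (-0.12 to -0.02, exact binomial test, adjusted p = 0.0098). It was -0.04 (-0.11 to 0.03) in lanes 1 and 2 and -0.11 (-0.18 to -0.03) in lanes 3 and 4. The Hoxd9 to Hoxd13 bins did not share this fall. By read pairs their log2 ratio was 0.06 (0.00 to 0.11). The sides differed (Fisher's exact test on read pairs, p = 0.000338, adjusted over 3 blocks p = 0.00101, a test chosen after the values were seen). In the balanced matrices, however, the Hoxd9 to Hoxd13 bins showed no rise. Their log2 ratio there was -0.01, beside -0.16 for Hoxd1 to Hoxd8, and 56 of 105 bin pairs (53.3%) were lower in the hindlimb. After division by distance it was 0.03, beside -0.12 for Hoxd1 to Hoxd8.

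The CS93 window (chr7:16090001-16120000) was also contacted less in the hindlimb library, at 1.27 (1.23 to 1.32) against 1.40 (1.35 to 1.45), with 35 of 54 bin pairs lower (signed-rank adjusted p = 0.00208) and a log2 ratio of -0.10 (-0.17 to -0.02, exact binomial test, adjusted p = 0.01). The log2 ratio was -0.17 (-0.27 to -0.07) in lanes 1 and 2 and -0.01 (-0.12 to 0.10) in lanes 3 and 4. These intervals overlapped, and the lane groups were not tested against each other. The cluster-side part of region a (chr7:16140001-16255000) went the other way, with 1.71 (1.68 to 1.73) in the hindlimb and 1.67 (1.65 to 1.69) in the forelimb, a log2 ratio of 0.07 (0.04 to 0.09, exact binomial test, adjusted p = 1.44e-05) and a positive ratio in both lane groups (0.07 and 0.06). Its signed-rank adjusted p was 0.00151, and 0.0578 once each value was divided by the mean at its distance. For neither block did a difference between the Hoxd1 to Hoxd8 and the Hoxd9 to Hoxd13 side pass Fisher's exact test (adjusted p = 0.674 for the CS93 window and 0.412 for region a). On the Hoxd9 to Hoxd13 side the log2 ratio was -0.07 (-0.15 to 0.02) for the CS93 window. For the cluster-side part of region a it was 0.11 (0.06 to 0.15) there, with an unadjusted signed-rank p of 3.3e-05 after division by distance. Neither direction was thus particular to Hoxd1 to Hoxd8.

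The 9 bins were not alike in their reach to these blocks. With region b the level climbed along the interval, from 1.42 at bin 1 to 2.36 at bin 9 in the forelimb and from 1.47 to 2.23 in the hindlimb. With the CS93 window it went from 1.12 at bin 1 to 1.83 at bin 9 in the forelimb and from 0.99 to 1.72 in the hindlimb. The Hoxd8 end, which lies farther from both blocks, thus contacted them more than the Hoxd1 end for its distance, and the intervals of bins 1 and 9 did not overlap in either library. With the cluster-side part of region a the bins were closer together, between 1.51 and 1.82 in the forelimb and between 1.47 and 1.90 in the hindlimb. The hindlimb to forelimb ratio was below 0 on the log2 scale in 6 of 9 bins for region b (-0.23 to 0.07), in 7 of 9 for the CS93 window (-0.29 to 0.26) and in 3 of 9 for region a (-0.08 to 0.22), the highest of the last being bin 9. High levels near region b were not particular to the Hoxd8 end. With the overlapping run chr7:15895001-15975000, bin 9 stood at 2.42 in the forelimb and 2.37 in the hindlimb. Bins 10 to 12 stood at 2.33 to 2.39 and at 2.32 to 2.49 with that run.

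**Figure D5:**
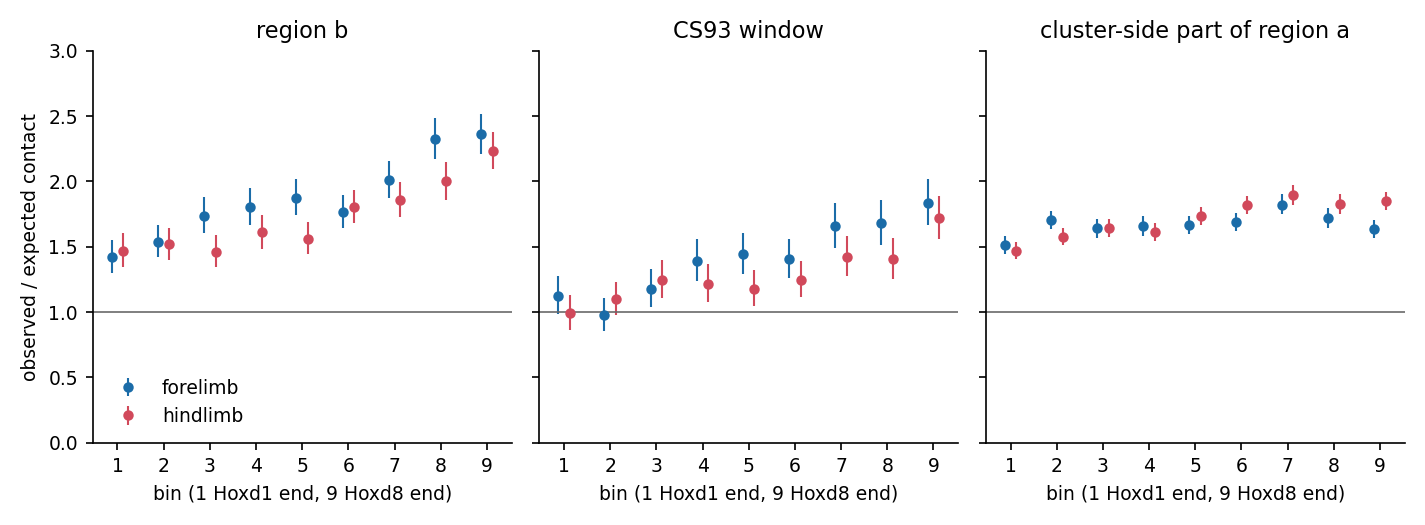
Observed over expected contact of each Hoxd1 to Hoxd8 bin with region b, the CS93 window and the cluster-side part of region a, bin 1 being the Hoxd1 end and bin 9 the Hoxd8 end. Points are the forelimb and hindlimb libraries with 95% exact Poisson intervals; the level with region b rises from 1.42 to 2.36 in the forelimb and from 1.47 to 2.23 in the hindlimb.

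At the scale of single 5-kb partners hardly any difference could be called. Of 555 partner bins, 1 was lower in the hindlimb (0.18%) and 0 were higher (0%) at an adjusted p under 0.05 by the exact binomial test, while 41 had an unadjusted p under 0.05. The bin called was bin 8 of the interval itself, whose contacts with the other member bins went from 1.03 in the forelimb to 0.857 in the hindlimb (857 and 765 read pairs, log2 ratio -0.29, -0.44 to -0.15, exact binomial test, adjusted p = 0.0251), with -0.30 in lanes 1 and 2 and -0.29 in lanes 3 and 4. Among the 71 elements, 2 differed (2.82%), both lower in the hindlimb and both near the far T-DOM border. The bins of both lie inside region b, so their read pairs are part of the counts given for that block. CS67 (chr7:15981386-15982011) went from 1.57 (1.42 to 1.73) to 1.19 (1.06 to 1.34), from 390 and 293 read pairs, with a log2 ratio of -0.41 (-0.63 to -0.19, exact binomial test, adjusted p = 0.0168). CS74 (chr7:15920946-15921334) went from 2.59 (2.39 to 2.80) to 2.11 (1.93 to 2.30), from 627 and 512 read pairs, with -0.30 (-0.47 to -0.13, exact binomial test, adjusted p = 0.0207). The lane groups gave -0.48 and -0.32 at CS67 and -0.18 and -0.44 at CS74. Adjusted over all partner bins instead, their bins had exact binomial p = 0.0606 and 0.0646. CS39, CS93, CS65, Prox, CsA, CsB and islands II, III and V had no adjusted p under 0.353. At 776 and 821 read pairs for CS39 and 72 and 99 for CsA, small differences at single elements were not detectable at this depth.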

How the data were processed

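CHi-C libraries from forelimb and hindlimb buds, 1 per tissue, were analysed from the deposited matrices. Per the study's methods, the authors trimmed adapters with cutadapt, mapped and filtered pairs with HiCUP and Bowtie2 on galGal5, placed each mate at the middle of its DpnII fragment, kept pairs with both mapping quality scores above 30 and both mates in the captured interval, and binned them with cooler. In the raw matrices as deposited, each value is a count, the number of read pairs that join a given pair of bins, and the deposited balanced matrices hold a signal from which cooler had removed differences in bin coverage, with masked bins left empty. The authors' valid-pair lists, with a mapping quality score for each mate and no filter on it, gave the lane of each pair and were used for alternatives only. Rebuilt from these lists at a quality of 30, the totals were 3097363 and 3221834 read pairs, beside 3096681 and 3221107 as deposited. Chromosome 2 matrices were not used.

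Levels are the sum of balanced values of a block over the sum of the mean values at the same distances, with exact Poisson intervals from its read pairs. Libraries and cluster sides were compared by an exact two-sided binomial test on read pairs given their expected numbers, with Clopper-Pearson limits, and study blocks also by the signed-rank test of Wilcoxon, two-sided (scipy 1.17.1). P-values were adjusted by Benjamini-Hochberg within each family named. Intervals cover counting error only. The procedure was run on simulated Poisson counts with set block levels. These held no coverage bias and no variation between libraries beyond counting, so they cannot show how it behaves under either. Domain limits, study blocks and the element list came from the study's supplementary coordinates. Named elements were a fixed list plus the 3 highest and 3 lowest others by the lower (higher) level of both libraries. Named bins were the 5 highest preferred and 5 lowest depleted ones outside the cluster, and every bin called between libraries. The bins and lists were chosen with earlier results of these data known. RefSeq gene order is that of assembly GRCg7b. Alternatives were raw counts, 10-kb bins, other expected values, distance limits, all mapping qualities, lane groups, narrower domains, stricter folds and wider elements.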

Additional observations from a re-analysis of the deposited data

How the results depend on the processing

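The block levels of the Hoxd1 to Hoxd8 bins whose interval excluded 1 kept their side of 1 under every alternative run, except that the hindlimb level beyond T-DOM was 0.995 with all mapping qualities in place of 1.04. The T-DOM level stayed between 1.36 and 1.54 and the C-DOM level between 0.308 and 0.36. The ratio of T-DOM to C-DOM level, 4.09 in the forelimb and 3.89 in the hindlimb, was 4.54 and 4.46 from raw counts, 4.35 and 4.30 with all mapping qualities, 4.69 and 4.42 in lanes 1 and 2, 4.37 and 4.51 in lanes 3 and 4, and 4.31 and 4.11 with domain limits moved 50 kb inwards.

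The lower hindlimb contacts inside Hoxd1 to Hoxd8 and with Hoxd9 to Hoxd13 passed the test under every alternative run that has one. The log2 ratio with T-DOM was -0.0041 from balanced values and 0.024 in lanes 3 and 4, where it missed the threshold. With C-DOM it passed at 0.058 with 10-kb bins, 0.064 with the median expected, 0.053 with the expected taken without HoxD bins, 0.11 in lanes 1 and 2 and 0.0503 scaled to the capture totals. Beyond T-DOM it passed with the sign turned, at -0.093 for pairs under 500 kb and -0.086 scaled to the totals. Beyond C-DOM it missed at 0.054 under 500 kb and 0.024 in lanes 1 and 2, and turned to -0.061 scaled to the totals, an alternative chosen after seeing the data. The cause was not tested.

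Preferred bins numbered 26 of 278 at 10 kb (9.35%) and 4 at a fold of 2, and depleted bins 127 at 10 kb, 75 under 500 kb, where 200 partner bins remain, and 112 at a fold of 0.5. Of the 50 preferred bins, 41 were shared by each lane group and 43 by raw counts. Preferred bin pairs at a fold of 2 numbered 45 of 1673 (2.69%), beside 0.76% of the 47473 captured pairs. At or below 0.5 in both libraries were 391 pairs (23.4%), beside 4.71% of the captured pairs. Of 555 partner bins, 2 were called between libraries with the median expected and 2 with all mapping qualities. From 20 kb and in each lane group 0 were called. At 10 kb 3 of 278 bins were called, and under 500 kb 7 of 200. With a minimum of 20 read pairs 4 were called. The signed-rank result for region a weakened, with a log2 ratio of 0.032 after division by distance. With 10 kb added on either side, 6 of 73 elements differed. CS6, CS29, CS32, CS33 and CS34 were higher in the hindlimb and CS74 was lower. CS6 and CS34 then cover the same bins, and the bins of CS33 overlap those of CS6 and of CS32, so these calls are not separate observations. CS67 did not pass (exact binomial test, adjusted p = 0.221). No paired analysis was possible because each tissue has 1 library. The lack of replicates limits every comparison between the limbs.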
